A study of Sus scrofa domesticus with 2 samples.

Results

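The cells described here are 682 cultured pig lung endothelial cells (ECs) in which the mitotic genes CDC20, CCNB1 and DLGAP5 together took the largest share of the transcripts, after the cells with the most TOP2A, UBE2C, CENPF and CDK1 had been taken out. They are called CDC20/CCNB1-high cells. They were chosen by these values among the 5946 cells of the lung library, and made up 11.5% of it. The whole series holds 7131 cells in 2 libraries, cultured ECs of the lung and of the aorta, with 1 library each.

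ECs line blood vessels, and the cells were primary cells of the domestic pig and not an established line. A perfused lung was digested with collagenase II and collagenase IV, and the released cells were grown in PAEC medium, which is DMEM with fetal calf serum, non-essential amino acids, sodium pyruvate, Glutamax and antibiotics. The aorta cells were released from a sealed piece of aorta and grown in the same medium. Neither library carried a treatment, and the labels give no age, sex or number of animals. The paper describes the pigs of its scRNA-seq tissues as hybrids of Landrace, Large White and Duroc and gives their age. It does not state this for the cultures separately. The transcripts were captured by droplet scRNA-seq from their 3′ ends, and each carried a unique molecular identifier (UMI), so values are numbers of molecules. The lung library held 57213236 UMIs, with a median of 9326 UMIs per cell. As there was 1 library per tissue, no difference was tested, no p-value is given, and the intervals below are 95% intervals that cover counting error only.

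A dividing cell copies its DNA in S phase, prepares in G2 and separates its chromosomes in mitosis. Cyclin B1, encoded by CCNB1, switches on the kinase CDK1 at the start of mitosis, and the spindle of microtubules then pulls the chromosomes apart. The spindle checkpoint holds back the anaphase-promoting complex until all chromosomes are attached. The complex then works with its activator CDC20 and marks cyclin B and securin for destruction. Transcripts of these genes rise in G2 and mitosis. The topoisomerase TOP2A, by contrast, is also needed while DNA is copied, and its transcripts rise earlier.

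The members were found in 4 steps. The limits on detected genes (over 200, under 5000) and on mitochondrial UMIs (under 30%) left 5682 cells, and 5245 of them had at least 3 UMIs of PECAM1, an adhesion protein of EC junctions. Of these, 5169 had no more than 2 UMIs of the collagens COL1A1 and COL1A2 together. The 12% of cells with the highest share of TOP2A, UBE2C, CENPF and CDK1 were removed, which were 620 cells called TOP2A-high here. Of the 4549 cells left, the 15% with the highest share of CDC20, CCNB1 and DLGAP5 were the members, and the 3867 others are called the other remaining cells. The 3 ranking genes took a median of 0.0797% of the UMIs of a member, 0.00381% in the other remaining cells and 0.0644% in the TOP2A-high cells. These shares follow from the selection and are not results.

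**Figure D1:**
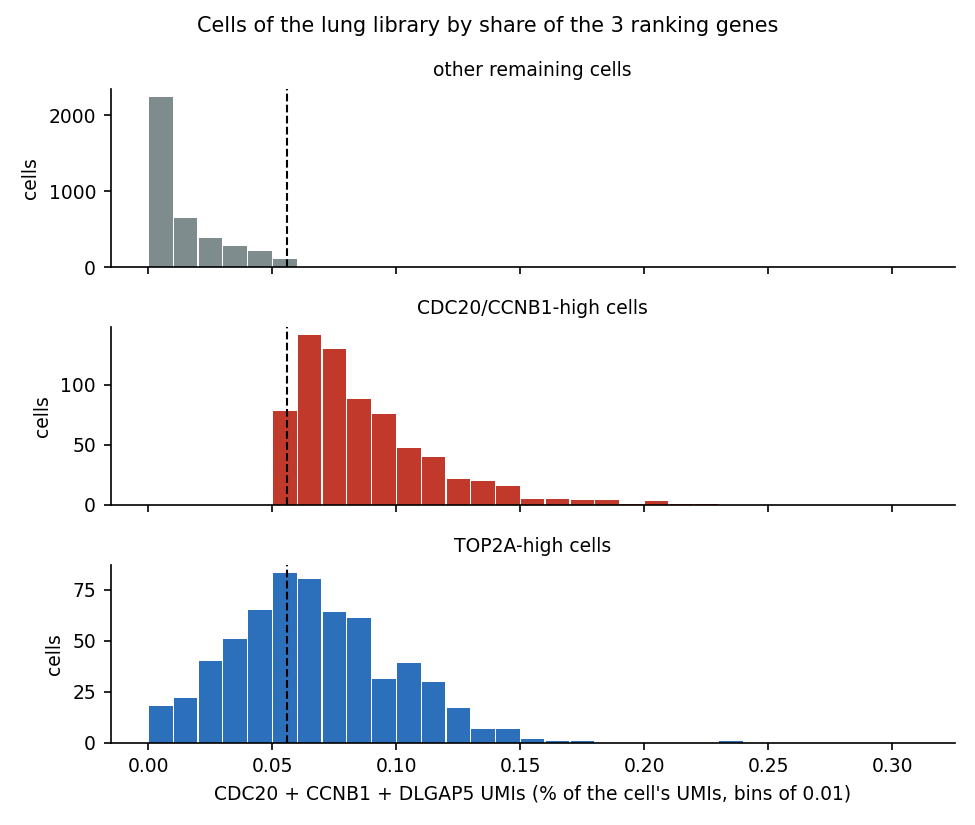
Number of cells (vertical axes) by the share of their UMIs from CDC20, CCNB1 and DLGAP5 (horizontal axis, in % of the UMIs of the cell, bins of 0.01) for the 3867 other remaining cells, the 682 CDC20/CCNB1-high cells and the 620 TOP2A-high cells of the lung library. The dashed line is the lowest member at 0.0559%. The members start where the other remaining cells end, with no gap, and the TOP2A-high cells lie on both sides of the line.

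The member nearest to the limit had 4 such UMIs among 7161 (0.0559%), and the nearest cell outside had 5 among 8977 (0.0557%). Within 20% of the limit lay 184 members above it (27.0%) and 227 other remaining cells below it (5.87%). A member carried a median of 7 UMIs of the 3 genes, with a range from 2 to 23. In 481 members (70.5%) all 3 genes had a UMI, in 184 (27.0%) 2 had one and in 17 (2.49%) only 1 did. Among the other remaining cells, 1933 (49.99%) had no UMI of these genes. These shares were the values of the rule, and whether the members form a cluster of their own was not tested.

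Depth differed between the groups. A member held 8038 UMIs from 2705.5 genes at the median, against 9400 UMIs and 2872 genes in the other remaining cells and 12926.5 UMIs and 3578 genes in the TOP2A-high cells. The median mitochondrial share was 5.34% in members, 5.49% in the other remaining cells and 4.84% in the TOP2A-high cells. The part of depth in the levels below was not tested, but levels are given as CPM, the UMIs of a gene scaled to 1000000 UMIs of the group, and shares of cells are given at 1 depth. Of the cell barcodes, 5 occurred in both libraries, and 0 of them belonged to a member.

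The start regions of the genes that set the members and the TOP2A-high cells are shown here, since genes of the late cell cycle are known for 2 short elements near their start. These are the CCAAT box and the cell cycle genes homology region, CHR, with the letters TTTGAA or TTCGAA. The 150 bases before the annotated start of each gene are given 5′ to 3′ on the strand of the gene, from the RefSeq annotation and genome of Sscrofa11.1. Capitals mark CHR letters and CCAAT on either strand that lie wholly inside the bases shown.
CDC20 (chr6:167890588-167890737, minus strand): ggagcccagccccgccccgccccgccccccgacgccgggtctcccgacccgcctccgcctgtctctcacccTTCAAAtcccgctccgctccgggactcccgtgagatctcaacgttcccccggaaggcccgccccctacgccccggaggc
CCNB1 (chr16:47338089-47338238, plus strand): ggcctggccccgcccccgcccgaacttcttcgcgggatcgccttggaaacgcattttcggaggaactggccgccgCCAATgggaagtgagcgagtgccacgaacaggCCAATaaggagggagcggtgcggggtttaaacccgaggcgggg
DLGAP5 (chr1:184550029-184550178, minus strand): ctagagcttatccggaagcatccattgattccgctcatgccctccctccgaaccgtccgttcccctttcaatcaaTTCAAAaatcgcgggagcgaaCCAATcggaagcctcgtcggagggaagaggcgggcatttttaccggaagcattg
TOP2A (chr12:22001150-22001299, plus strand): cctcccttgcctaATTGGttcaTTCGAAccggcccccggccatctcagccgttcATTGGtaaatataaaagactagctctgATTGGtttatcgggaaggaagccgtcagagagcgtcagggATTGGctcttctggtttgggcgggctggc
UBE2C (chr17:48018253-48018402, plus strand): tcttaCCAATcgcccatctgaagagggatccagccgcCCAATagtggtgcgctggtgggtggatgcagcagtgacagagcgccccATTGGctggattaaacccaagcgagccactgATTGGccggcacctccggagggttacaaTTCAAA
CENPF (chr9:129012242-129012391, minus strand): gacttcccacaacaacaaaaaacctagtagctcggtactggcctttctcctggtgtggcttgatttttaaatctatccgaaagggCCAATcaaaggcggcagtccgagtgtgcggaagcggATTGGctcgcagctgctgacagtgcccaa
CDK1 (chr14:64233795-64233944, plus strand): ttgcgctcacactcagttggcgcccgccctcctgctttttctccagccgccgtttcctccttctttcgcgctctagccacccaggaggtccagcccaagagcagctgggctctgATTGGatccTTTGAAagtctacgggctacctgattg
The 3 ranking genes thus differ in these letters. Before the start, CHR letters lay at 79 bases in CDC20 and at 75 in DLGAP5, and none were in the window of CCNB1. CCAAT began 75 and 43 bases before the start of CCNB1, 54 and 4 before that of DLGAP5 and 1 before that of CDC20. The matches at 4 and 1 bases reach past the start and so have no capitals above. TOP2A had 5 CCAAT matches and 3 of CHR letters in its window from 250 bases before to 50 after the start, and CDK1 had CHR letters 27 bases before its start. UBE2C had 5 CCAAT matches and CHR letters 6 bases before its start, while CENPF had 3 CCAAT matches and no CHR letters. A match is a description of letters and not a site bound by a factor.

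Endothelial markers were present in the members, PECAM1 by selection. All 15 endothelial markers had UMIs in the members, and together they took 3863 CPM in members, 3788 CPM in the other remaining cells and 3525 CPM in the TOP2A-high cells. The level of PECAM1, which the selection used, was 1639 CPM in members and 1609 CPM in the other remaining cells. PECAM1 is part of the sum above and of the 11 markers below. VE-cadherin, the junction protein encoded by CDH5, had 164 CPM in members and 157 CPM in the other remaining cells. The von Willebrand factor gene VWF, by contrast, had 1 UMI over all members. Of 11 endothelial markers at 20 CPM or more, 0 differed 1.5-fold from the other remaining cells, with a median ratio of 1.02.

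Markers of other cell types were low, except for the contractile gene TAGLN. TAGLN had 829.7 CPM in members, 973 CPM in the other remaining cells and 983 CPM in the TOP2A-high cells, and made up nearly all of the mural sum of 839, 984 and 993 CPM over 8 markers. The 6 fibroblast markers summed to 26.6 CPM in members and 27.9 CPM in the other remaining cells, with DCN and LUM at 0 in members. Most of the sum in members came from COL1A1 at 12.8 CPM and COL1A2 at 12.1 CPM. The selection limited both genes in all groups, so this low sum is in large part set by the rule. The 8 leukocyte markers summed to 5.36 CPM in members, 9.07 CPM in the other remaining cells and 18.2 CPM in the TOP2A-high cells, with PTPRC, CD163 and CD3E at 0 in members. Epithelial markers had 2 UMIs over all members, and the lymphatic, mesothelial and erythroid markers measured had 0, which allows up to 0.519 CPM at 3 counts. The part of these cells in the levels below was not tested.

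The 5 genes that the cells are named by were higher in members than in the other remaining cells, and 3 of them by selection. CDC20 had 1422 UMIs in members, or 246 CPM (233 to 259), against 41.2 CPM (39.2 to 43.3) in the other remaining cells and 155 CPM (146 to 164) in the TOP2A-high cells. CCNB1 had 236 CPM (224 to 249) in members, 27.0 CPM in the other remaining cells and 195 CPM in the TOP2A-high cells. The level of DLGAP5, a spindle protein that binds microtubules, was 372 CPM in members, 54.4 CPM in the other remaining cells and 331 CPM in the TOP2A-high cells. The 3 genes were thus 5.97, 8.73 and 6.85 times as high in members as in the other remaining cells, and CDC20 was also 1.59 times as high (1.47 to 1.72) as in the TOP2A-high cells. BUB1B and HMMR were not used by the selection. BUB1B, the spindle checkpoint kinase BUBR1, had 146 CPM in members, 33.0 CPM in the other remaining cells and 151 CPM in the TOP2A-high cells. HMMR, a receptor for hyaluronan that also sits on the spindle, had 198 CPM, 50.1 CPM and 234 CPM in the same order.

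The same UMIs ranked the cells and gave these levels. Cells were therefore also ranked, and the TOP2A-high cells removed, on a random 50% of the UMIs, and the levels were read from the UMIs left over. In these, CDC20 had 181 CPM in the 682 cells so chosen and 51.9 CPM in the cells not chosen, a ratio of 3.48 (3.12 to 3.87). The ratio of CCNB1 was 4.54 (4.04 to 5.10) and that of DLGAP5 3.91 (3.58 to 4.27). These ratios of the ranking genes were smaller than the ratios above. BUB1B at 3.88 and HMMR at 3.70 changed less. Of the cells so chosen, 498 (73.0%) were members.

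**Figure D2:**
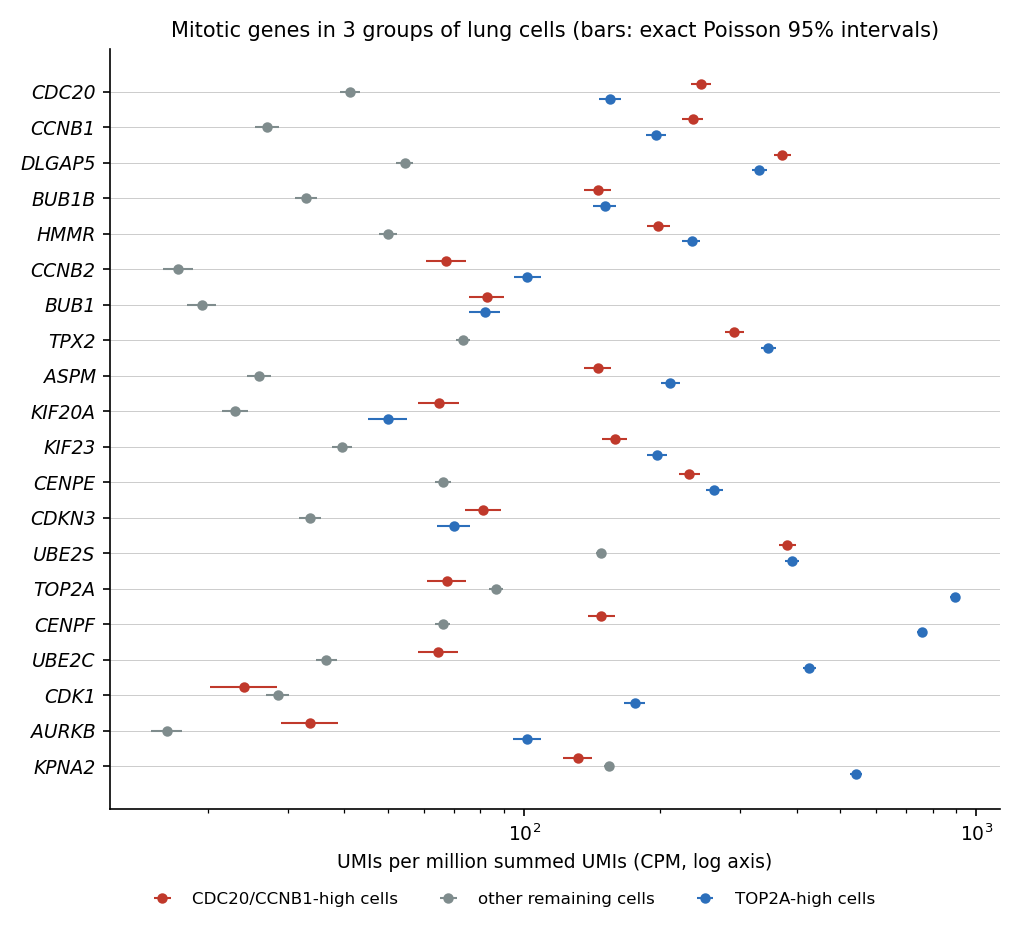
Levels of 20 mitotic genes as CPM (log axis) in CDC20/CCNB1-high cells, other remaining cells and TOP2A-high cells of the lung library. Points are levels and bars are exact Poisson 95% intervals. For BUB1B, BUB1 and UBE2S the members lie next to the TOP2A-high cells, and for TOP2A, CDK1 and KPNA2 they lie next to the other remaining cells.

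The genes used for the removal showed the other side of the selection. TOP2A had 67.3 CPM in members, 86.7 CPM in the other remaining cells and 895 CPM in the TOP2A-high cells. CDK1 had 24.1, 28.5 and 175 CPM in the same order. UBE2C, a ubiquitin-conjugating enzyme of the anaphase-promoting complex, had 64.5, 36.5 and 427 CPM. CENPF, a large kinetochore protein, had 148, 65.9 and 756 CPM. The members thus lay below the other remaining cells for TOP2A, and above them for UBE2C and CENPF. For CDK1 the ratio was 0.844, with an interval (0.702 to 1.008) that held 1. The place of TOP2A and CDK1 depended on the selection. In the UMIs not used for ranking, TOP2A was at 134 CPM in chosen cells and 88.2 CPM in the others. CDK1 was at 30.8 and 27.3 CPM there, a ratio of 1.13 (0.893 to 1.41). Over all alternatives to the selection, the ratio of TOP2A went from 0.466 to 3.23 and that of CDK1 from 0.682 to 2.39. Both were highest where no cells were removed.

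Across all genes at 20 CPM or more over both groups, few differed. A gene was called higher at a ratio of 1.5 or more and lower at its inverse or less. Of 5419 genes compared, 112 (2.07%) were called higher in members than in the other remaining cells and 60 (1.11%) lower. Of the 112, 5 were genes of the selection (CDC20, CCNB1, DLGAP5, UBE2C and CENPF), which left 107. The median ratio over all genes was 1.03. When every ratio was divided by this median, 97 genes were called higher and 80 lower, so the share of higher calls fell from 65.1% to 54.8%. The counts below are descriptions, since the same cells and the same contrast chose the members. The counts by list leave out the genes of the selection.

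Among the cyclins and kinases of mitosis, 4 of 5 genes compared were called higher and 0 lower, with a median ratio of 1.92. CCNB2, which encodes the second B-type cyclin, had 67.1 CPM in members and 17.2 CPM in the other remaining cells, a ratio of 3.91 (3.44 to 4.45). CDKN3, a phosphatase that acts on CDK1, was 2.41 times as high (2.17 to 2.69). CKS1B and CKS2, small partners of the cyclin-dependent kinases, were 1.92 and 1.80 times as high. The kinase WEE1, which keeps CDK1 inactive before mitosis, had 34.8 CPM in members and 43.2 CPM in the other remaining cells, a ratio of 0.806 that was not called. Several genes of this group were too low to be compared by this rule, and their values are given without a call. PLK1, the polo-like kinase of mitotic entry, had 15.6 CPM in members and 3.36 CPM in the other remaining cells. The phosphatase gene CDC25C had 37.9 and 10.3 CPM, and the kinase gene AURKB 33.6 and 16.2 CPM.

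In the spindle checkpoint, 6 of 9 genes were called higher and 0 lower, with a median ratio of 1.79. The kinase gene BUB1 had 82.5 CPM in members and 19.3 CPM in the other remaining cells, a ratio of 4.27 (3.79 to 4.79). MAD2L1, whose product binds and holds CDC20, was 1.96 times as high and TRIP13, an ATPase that takes the MAD2 complex apart, 1.86 times. BUB3 at 1.48, ZWILCH at 1.47 and ZW10 at 1.27 lay below the limit for a call, which BUB3 passed in 10 and ZWILCH in 4 of 16 alternatives.

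Most genes of the anaphase-promoting complex and its regulators were not called, while its activator gene CDC20 was high by the selection. Of 10 genes of the complex and its regulators compared without CDC20 and UBE2C, 2 were called higher and 0 lower, and their median ratio was 1.09, against 1.03 for all genes. UBE2S, the enzyme that extends the ubiquitin chains, had 382 CPM in members and 148 CPM in the other remaining cells, a ratio of 2.58 (2.46 to 2.72). The core subunit gene CDC27 was 1.57 times as high. The subunit genes ANAPC2 and CDC26, each at 1.04, ANAPC16 at 1.08 and ANAPC15 at 0.930 were not called, nor was FZR1, the other activator of the complex, at 1.10. FBXO5, which encodes an inhibitor of the complex, was too low for a call, with 7.09 CPM in members, 20.0 CPM in the other remaining cells and 42.2 CPM in the TOP2A-high cells.

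The spindle proteins held the most genes that were higher. Of 17 compared, 14 were called higher and 0 lower, with a median ratio of 3.03. ASPM, a protein of the spindle poles, had 145 CPM in members (136 to 155) and 25.9 CPM in the other remaining cells (24.3 to 27.6), a ratio of 5.60 (5.10 to 6.15). TPX2, which activates the Aurora A kinase on the spindle, had 291 and 73.2 CPM, a ratio of 3.98 (3.74 to 4.23). The kinesin gene KIF4A was 3.83 times as high, and PRC1, which bundles the microtubules of the midzone, 3.81 times. The importin gene KPNA2 had 131 CPM in members and 154 CPM in the other remaining cells, a ratio of 0.851 that became 1.97 when no cells were removed. NUMA1 at 1.02 and STMN1 at 1.42 were not called either.

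The central spindle and the kinetochore followed the spindle. For the central spindle and cytokinesis, 7 of 8 genes were called higher and 0 lower, with a median ratio of 2.76. The kinesin gene KIF23 had 159 CPM in members and 39.6 CPM in the other remaining cells, a ratio of 4.003 (3.68 to 4.35), and ANLN, which encodes the furrow protein anillin, was 2.71 times as high. The exception was PLK2 at 0.858, a polo-like kinase of the stress response. For the kinetochore and centromere, 6 of 8 genes were called higher and 0 lower, with a median ratio of 2.46. SGO2, a protector of cohesion between sister chromatids, was 4.35 times as high (3.81 to 4.95), and the kinesin gene CENPE 3.51 times (3.28 to 3.75), at 232 against 66.1 CPM. SPC24 at 1.49 and CENPU at 1.48 were just under the limit.

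Chromosome condensation came next, with 4 of 7 genes called higher and 0 lower and a median ratio of 1.77. The condensin subunit genes SMC4 and SMC2 had ratios of 2.55 and 1.77, and the chromatin protein gene HMGB2 had 289 CPM in members and 126 CPM in the other remaining cells. The histone variant gene H2AFZ was at 2199 and 1477 CPM, a ratio of 1.49. Genes that turn on the G2 and mitosis genes differed little, with 1 of 9 called, the kinase gene PBK at 1.92. MYBL2, which encodes B-MYB, was at 1.31 (1.23 to 1.398). Of the nuclear envelope genes, 3 of 9 were called higher, which were LBR at 2.33, LMNB1 at 2.08 and LMNB2 at 1.57, while LMNA was at 1.12. Of the tubulin and actin genes, 2 of 12 were called higher, TUBA1C at 2.36 and TUBB4B at 1.90, and ACTB was at 1.04.

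**Figure D3:**
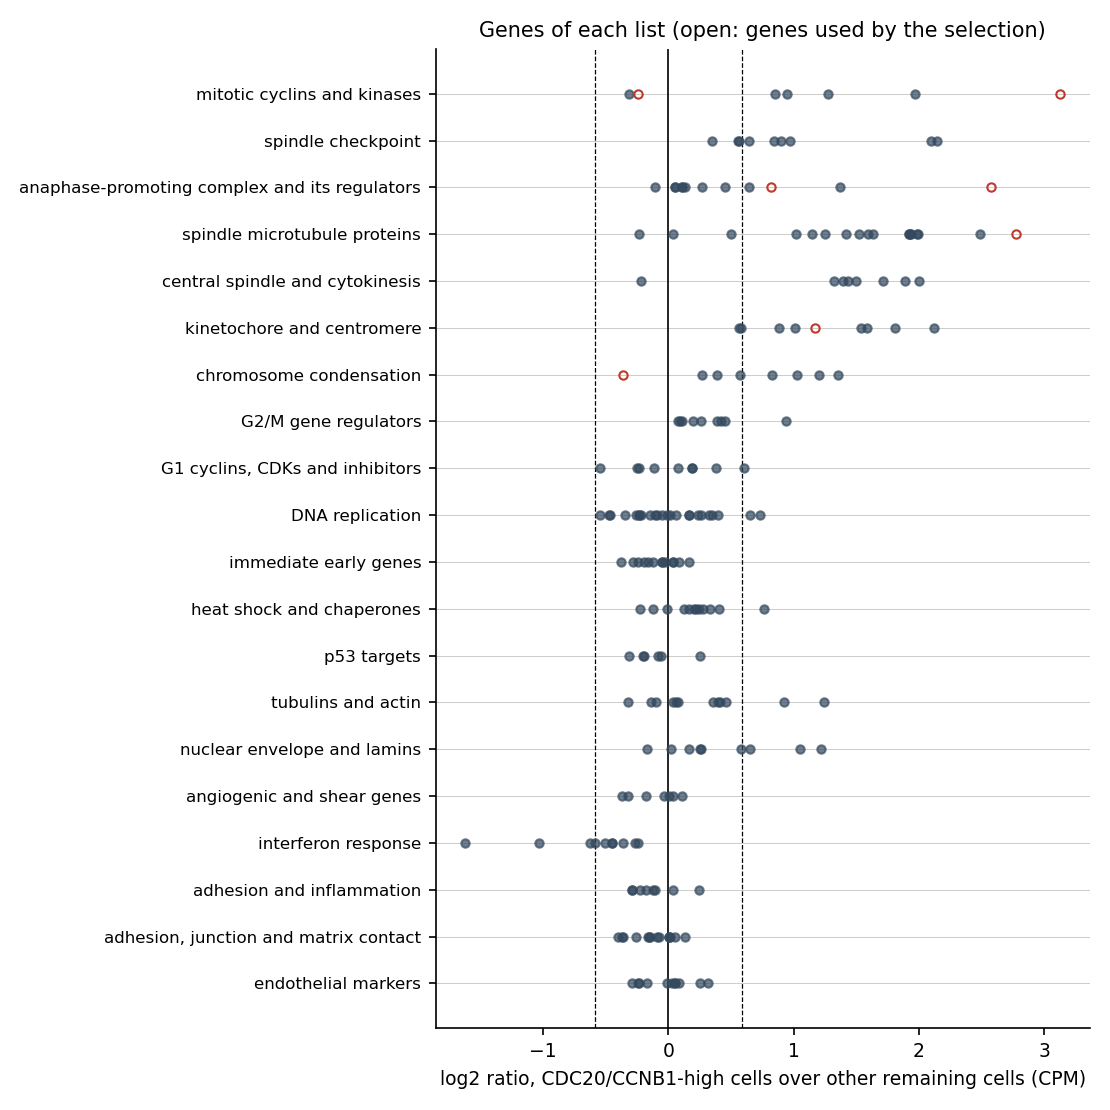
Log2 ratio of CPM in CDC20/CCNB1-high cells over other remaining cells of the lung library (horizontal axis) for each gene compared, by list. Filled points are listed genes, open points are genes used by the selection, and dashed lines are the 1.5-fold limits. The 7 lists of mitosis at the top lie mostly to the right, up to ASPM at a ratio of 5.60 among filled points, and the interferon genes lie to the left of 0.

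Genes of G1 and of DNA replication at 20 CPM or more were near the level of the other remaining cells. Some genes under this minimum were lower in members. Of 24 replication genes, 2 were called higher and 0 lower, and the median ratio was 0.980. The 2 were RPA2, which binds single-stranded DNA, at 1.66, and the ribonucleotide reductase gene RRM1 at 1.57, which was 1.38 when cells were thinned before ranking. MCM4, a subunit of the replicative helicase, was lowest of those compared at 0.686 (0.601 to 0.781), and the sliding clamp gene PCNA had 89.3 CPM in members and 107 CPM in the other remaining cells. CDC6, which loads the helicase, was too low for a call, with 10 UMIs in members (1.73 CPM) and 8.09 CPM in the other remaining cells. Of 9 G1 genes, only CDKN2C was called, at 1.52, a call lost in 9 of 16 alternatives (down to 1.31). The cyclin D genes CCND1 and CCND3 were at 0.852 and 0.686. The cyclin E genes CCNE1 and CCNE2, which act at the start of S phase, had 7.09 and 5.54 CPM in members and 14.1 and 14.4 CPM in the other remaining cells. Without a call, their ratios were 0.504 (0.357 to 0.693) and 0.384 (0.260 to 0.549), and that of CDC6 was 0.214 (0.102 to 0.399).

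Among the lists, calls of lower genes fell to the interferon response. Of 10 genes compared, 4 were called lower and 0 higher, the median ratio was 0.717, and 0 of the 10 lay above 1. RSAD2, which encodes the antiviral enzyme viperin, had 64 UMIs or 11.07 CPM in members and 34.0 CPM in the other remaining cells, a ratio of 0.325 (0.249 to 0.418), which was 0.647 when cells were ranked without DLGAP5. MX2 was at 0.490, MX1 at 0.649 and IFIT1 at 0.665, of which MX1 lost its call in 4 and IFIT1 in 7 of 16 alternatives, and ISG15 at 0.831 was not called. In the TOP2A-high cells RSAD2 had 14.2 CPM, MX1 45.3 CPM against 46.7 CPM in members, and 0 of 7 interferon genes compared were called against the members. Within the members, ISG15 was lowest in the tertile with the highest share of the ranking genes, at 362 CPM (334 to 391), and was 487 and 535 CPM in the lowest and middle tertiles.

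Outside the lists, the highest ratio belonged to PIMREG, a nuclear protein of dividing cells, with 62.3 CPM in members and 14.2 CPM in the other remaining cells, a ratio of 4.37 (3.82 to 5.01). SHCBP1, which acts at the central spindle and midbody, was 3.29 times as high. The gene ENSSSCG00000039107, which has no symbol in the sources used here, was 3.24 times as high, and BBS7, a subunit of a complex of the cilium, 2.91 times. PRR11 at 2.84, the formin gene DIAPH3 at 2.58 and UBE2T of the Fanconi anaemia pathway at 2.54 followed. RAD21, the cohesin subunit that is cut in anaphase, had 244 and 112 CPM, a ratio of 2.18 (2.05 to 2.32).

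Of the genes outside the lists, SLPI had the lowest ratio. SLPI, an inhibitor of proteases of leukocytes, had 45.9 CPM in members and 125 CPM in the other remaining cells, a ratio of 0.365 (0.322 to 0.414). TIMP3, an inhibitor of matrix proteases, was at 0.458, the complement factor D gene CFD at 0.462 and the protease gene MMP23B at 0.483. ANGPTL4 was at 0.521, the interferon-induced gene ISG12(A) at 0.524 and TNFAIP6 at 0.541. GRIP1 at 0.445, JADE1 at 0.580, KIAA1217 at 0.595 and LENG8 at 0.602 were also among them. SLPI in the TOP2A-high cells was at 47.6 CPM, close to the members, and TIMP3 was at 42.6 CPM against 34.3 CPM in members. TNFAIP6 differed, with 75.2 CPM in the TOP2A-high cells, 31.7 CPM in members and 58.5 CPM in the other remaining cells. The low gene ENSSSCG00000036080, which has no symbol here, was at 1042, 233 and 415 CPM in the same order. For the other low genes named here, levels in the TOP2A-high cells are not given.

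Against the TOP2A-high cells, most calls were lower in members. Of 5566 genes compared, those of the selection included, 26 (0.467%) were called higher in members and 133 (2.39%) lower, and the median ratio was 1.02. Without the genes of the selection, 8 of 11 mitotic cyclins and kinases, 8 of 20 spindle proteins, 5 of 15 kinetochore genes and 5 of 14 genes of the central spindle were called lower in members, and 0 of these lists' genes were called higher. Of these lower genes, 5, 3, 4 and 4 in the same order were under 20 CPM when pooled with the other remaining cells, and so passed the minimum in this comparison but not in the one above. AURKB had 33.6 CPM in members and 101 CPM in the TOP2A-high cells, a ratio of 0.331 (0.281 to 0.388). KPNA2 had 131 and 542 CPM, a ratio of 0.242, and FAM83D, which brings a kinase to the spindle, 7.27 and 57.2 CPM, a ratio of 0.127 (0.0903 to 0.174). CDC25B, a phosphatase that activates CDK1, was at 0.306.

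Some late genes were near their level in the TOP2A-high cells, though the lists of mitosis lay below 1 at the median. Without the genes of the selection, the median was 0.522 for mitotic cyclins and kinases, 0.691 for spindle proteins and 0.704 for the central spindle. It was 0.723 for condensation, 0.828 for the kinetochore, 0.860 for the spindle checkpoint and 0.925 for the anaphase-promoting complex and its regulators. In the checkpoint list, TTK at 0.559 (0.470 to 0.663) and SPDL1 at 0.502 were called lower. BUB1 was at 1.01 (0.895 to 1.14) of its level in TOP2A-high cells, BUB1B at 0.967 (0.884 to 1.06), UBE2S at 0.978 (0.925 to 1.03), NUF2 of the outer kinetochore at 1.00 (0.911 to 1.11) and KIF4A at 0.976 (0.877 to 1.09). KIF20A had 64.7 CPM in members and 49.97 CPM in the TOP2A-high cells, a ratio of 1.30 (1.12 to 1.496), and CDKN3 was at 1.16 (1.02 to 1.31). Other genes not used by the selection were lower in members, with CCNB2 at 0.661, NUSAP1 at 0.541 and PLK1 at 0.518 of their level in the TOP2A-high cells. Outside the lists, the genes called higher against the TOP2A-high cells were led by ZFC3H1 at 1.83 (1.56 to 2.15), a factor of nuclear RNA decay, MSMO1 at 1.67, an enzyme of cholesterol synthesis, and RGS2 at 1.66. Histone genes were among the lowest, with H2AC20 at 0.307, HIST1H1D at 0.314 and HIST1H1E at 0.360.

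Shares of cells with a UMI were also compared at equal depth. Cells were reduced at random to 6300 UMIs each, for which 593 members, 3489 other remaining cells and 571 TOP2A-high cells were deep enough, and 89, 378 and 49 were left out. BUB1B then had a UMI in 60.5% of members (56.5 to 64.5), 16.3% of the other remaining cells and 58.7% of the TOP2A-high cells, and unthinned in 67.3%, 21.5% and 77.4%. For ASPM the thinned shares were 55.8%, 11.8% and 67.6%, and the unthinned ones 64.5%, 16.9% and 84.7%. PLK1 was found in 10.6% of members, 1.75% of the other remaining cells and 17.9% of the TOP2A-high cells after thinning, and in 12.3%, 3.00% and 30.97% before. KPNA2 was found in 50.6%, 55.4% and 95.8% after thinning, and in 57.3%, 65.3% and 96.1% before. For BUB1B, members thus lay below the TOP2A-high cells before thinning and slightly above them after it, with overlapping intervals. No cells known to lack these transcripts were set apart in this library, so the share that free RNA can give was not measured.

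The members also differed among themselves. Split in tertiles by the share of the 3 ranking genes, TOP2A was at 113 CPM (99.1 to 128) in the lowest, 49.4 CPM in the middle and 31.8 CPM (24.0 to 41.4) in the highest tertile, and CDK1 at 31.8, 24.2 and 14.5 CPM. TOP2A and CDK1 were used by the removal, so their levels among members are conditioned by the selection. TPX2, HMMR and ASPM, which the selection did not use, went up across these tertiles. TPX2 was at 241 CPM (221 to 263), 288 and 356 CPM (329 to 385), ASPM at 114, 139 and 190.2 CPM, and HMMR at 171, 202 and 226 CPM. The tertiles had medians of 8497.5, 8026 and 7567 UMIs per cell, and the part of this in the levels was not tested.

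Split instead by the share of TOP2A, UBE2C, CENPF and CDK1, the members differed most in the genes of the split itself. TOP2A was at 2.74 CPM in the lowest and 177 CPM in the highest tertile, CENPF at 10.4 and 312 CPM. CCNB1 stayed level, at 236 CPM (215 to 259.8), 228 CPM and 243 CPM (222 to 265), and BUB1B was at 134, 143 and 158 CPM. KPNA2, which the split did not use, was at 85.003 CPM (72.1 to 99.5) in the lowest, 103 CPM in the middle and 198 CPM (179 to 218) in the highest tertile, and CCNB2 at 44.4, 60.6 and 93.3 CPM. The level of CCNB1 is conditioned by the selection of all members on it.

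The same rule was applied to the cultured aorta ECs. With the upper limit of 5000 genes it gave 10 cells, as 244 aorta cells passed the limits on genes and mitochondrial share with it and 953 without it, so the limit was dropped there. It then kept 399 aorta cells, removed 48 and gave 53 cells against 298 other remaining cells. These cells were far deeper, with a median of 46511 UMIs for the 53 cells. The lung cells kept that limit, and tissue, depth and library cannot be told apart here, so the aorta values are set beside those of the lung without a comparison of levels.

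In the aorta, 319 of 5656 genes compared (5.64%), those of the selection included, were called higher in the chosen cells and 264 (4.67%) lower. Of the 107 genes called higher in the lung without the genes of the selection, 104 were compared in the aorta, all 104 lay above 1 there, and 92 were called higher. These 92 were 86.0% of the lung calls and 29.3% of the 314 aorta calls. Over all aorta genes compared, 56.3% lay above 1. Of the 60 genes called lower in the lung, 52 were compared, 51 lay below 1 and 35 were called lower, which were 58.3% of the lung calls and 13.4% of the 262 aorta calls. As the same genes ranked the cells in both libraries, a part of this overlap is set by the rule.

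Several named genes lay on the same side of 1 in both libraries, and others did not. ASPM had 162 CPM in the chosen aorta cells and 22.2 CPM in the other remaining aorta cells, a ratio of 7.30 (6.27 to 8.50) beside 5.60 in the lung. BUB1B was at 3.89 beside 4.41, TPX2 at 4.41 beside 3.98, and UBE2S at 2.66 beside 2.58. SLPI was at 0.238 beside 0.365. TOP2A, which the removal used in both libraries, had 14.2 CPM in chosen and 92.4 CPM in other remaining aorta cells. This was a ratio of 0.153 (0.106 to 0.214) beside 0.776 in the lung. It is conditioned by the selection, and no alternative to the removal was tried in the aorta. Of 24 replication genes, 8 were called higher in the aorta, beside 2 of 24 in the lung. MCM4 was at 1.28 (1.10 to 1.48) in the aorta beside 0.686 in the lung, and PCNA at 1.23 (1.12 to 1.36) beside 0.836. Of 11 interferon genes, 8 were called lower, with a median of 0.601. RSAD2 differed, at 107 CPM in chosen and 104 CPM in other remaining aorta cells, a ratio of 1.03 (0.8996 to 1.18) beside 0.325 in the lung.

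**Figure D4:**
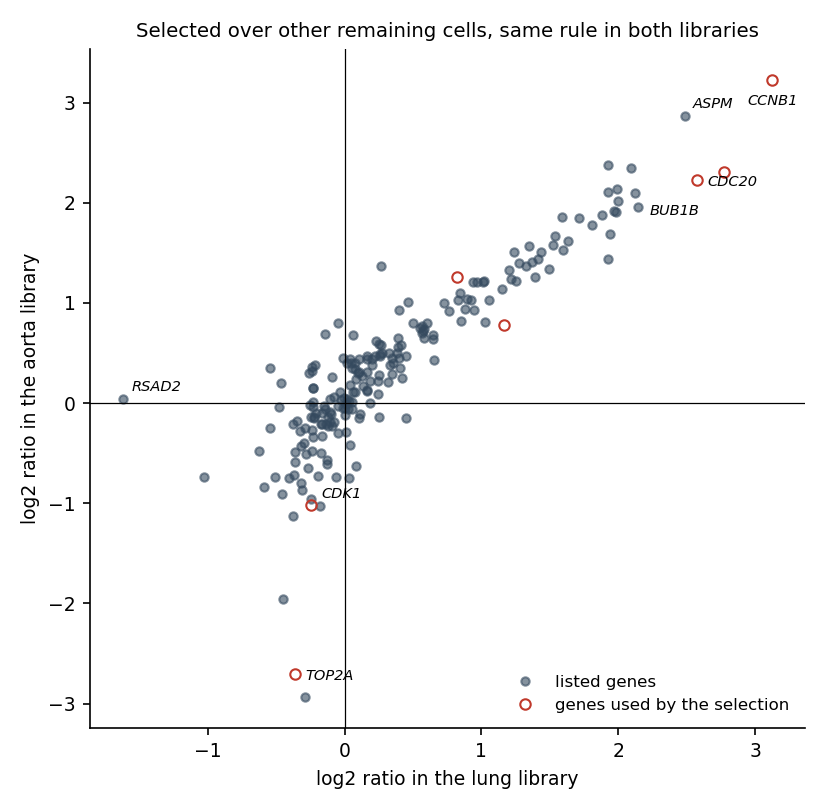
Log2 ratio of CPM in cells chosen by the rule over other remaining cells in the lung library (horizontal axis) and in the aorta library with no upper limit on genes (vertical axis), for listed genes compared in both. Each point is a gene and open points are genes used by the selection. ASPM and BUB1B lie at the upper right, RSAD2 lies far to the left at a ratio of 0.325 in the lung and 1.03 in the aorta, and TOP2A lies near the bottom at 0.776 and 0.153.

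The letters shown above for single genes were counted in the window from 250 bases before to 50 bases after the start of every gene. CHR letters were TTTGAA and TTCGAA on both strands, and CCAAT was also read on both strands. No match of one motif holds a match of the other. Of 19506 windows, 15.6% held CHR letters, 35.4% held CCAAT and 6.14% held both. Of the 112 genes called higher, with the 5 of the selection, 99 matched a window by symbol, and 52 of these (52.5%) held CHR letters, 63.6% held CCAAT and 41.4% held both. Of the 60 genes called lower, 55 matched, of which 16.4% held CHR letters, 34.5% CCAAT and 7.27% both. Among the 4796 windows of all genes compared, the shares were 13.5%, 36.8% and 5.53%. HMMR had CCAAT 98 bases before its start and no CHR letters, and BUB1B had CHR letters 195 bases before its start and no CCAAT.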

How the data were processed

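Single-cell libraries of cultured lung and aorta ECs of the pig were analysed, 1 each. The authors deposited counts, which are UMIs per gene and cell given by Cell Ranger 3.0.2 on Sscrofa11.1, per the file headers and the methods, not normalized and without the limits used here. Of 22804 genes, 7821 had only an identifier, of which 1051 could be given a symbol. Coordinates and sequences were read by symbol from the RefSeq annotation of the same build; the counts use Ensembl identifiers.

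Cells were chosen by the shares named in the report, and UMIs were summed over each group and scaled to 1000000 (CPM). Levels have exact Poisson intervals, ratios exact conditional (Clopper-Pearson) intervals and shares Clopper-Pearson intervals, at 95%. For a list with 0 UMIs, 3 counts were used as the upper limit. Genes at 20 CPM or more over both groups pooled were compared, and called at a ratio of 1.5. With 1 library per tissue no test was made, and cells were not treated as replicates. The members and the gene lists were chosen with earlier results of these data known. Named genes were those of the rule, those of the lists at 20 CPM or more with the highest and lowest ratios first, and, outside the lists and at 50 CPM or more in the higher group, the 12 highest and 12 lowest ratios against the other remaining cells and the 10 highest and 10 lowest against the TOP2A-high cells. Of genes known only by an identifier, few are named. List genes under 20 CPM, ISG15 and other genes in the tertiles and the values against TOP2A-high cells of genes outside the lists were chosen after their values were seen.

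Genes of the lists that were not found by name, such as CCNA2, AURKA, PTTG1, MKI67 and RRM2, were not analysed here. No doublet caller was run, and the deepest 5% of cells were left out as an alternative. Cells were thinned to 6300 UMIs, the 10th percentile of the kept cells. The functions were checked on simulated counts. Python 3.11.15, numpy 2.4.6, pandas 2.3.3, scipy 1.17.1 and matplotlib 3.10.9 were used. Alternatives to the limits, the ranking, the scaling and the minimum level were tried.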

Additional observations from a re-analysis of the deposited data

How the results depend on the processing

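The count of genes called higher stayed within 1.5 times of 112 under every alternative to the selection and the scaling, from 97 to 133, and the count called lower did not. It was 34 with the top 6% removed, 30 with none removed and 35 with cells thinned to 1 depth before ranking, against 60. A similar count did not mean the same genes. Of the 133 called higher with none removed, 96 were among the 112. With ranking on 50% of the UMIs, 93 of 125 called higher and 36 of 58 called lower were among those reported. With a minimum of 5 CPM, 257 genes were called higher and 284 lower, and with 50 CPM 38 and 20, since these minimums change which genes are compared. The number of members ranged from 455 to 910. Of the cells chosen when none were removed, 64.0% were among the reported members, and 78.8% of those chosen after thinning were. Over 253 named genes and 16 alternatives, 3500 of 4048 ratios lay within the interval of the reported ratio, and 0 ratios of called genes crossed 1. Calls near the 1.5-fold limit were lost in some of the 16 alternatives, for CDKN2C in 9, IFIT1 and ENSSSCG00000036080 in 7, JADE1 and LENG8 in 6, MX1 in 4, RRM1 in 3, RPA2 and KIAA1217 in 2, and LMNB2 and TNFAIP6 in 1. Genes without a call gained one in others, TMPO in 12, BUB3 in 10, CENPU and TOP2A in 6, CCL5, CXCL10, MTFR2 and H2AC20 in 5, MCM4, SPC24 and ZWILCH in 4, CCND3 in 3, and 10 more genes in 1 or 2. The cause was not tested. No paired analysis was possible because the result comes from no test and there is 1 library per tissue. Genes of a few UMIs per group, such as CDC6, are limited by depth. Doublets, free RNA and the animal could not be separated from the values.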

Other observations

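Heat shock and inflammatory genes of the CDC20/CCNB1-high cells were near the level of the other remaining cells. Of 12 heat shock and chaperone genes, 1 was called higher, HSPH1, an exchange factor of the HSP70 chaperone, with 165 CPM in members and 97.3 CPM in the other remaining cells, a ratio of 1.70 (1.58 to 1.82). DNAJA1 at 1.26 and HSPA8 at 1.21 were not called, and HSPA5, the chaperone of the endoplasmic reticulum, was at 0.991. Against the TOP2A-high cells, 11 of these 12 genes lay above 1 and 0 were called, with a median ratio of 1.19. In the aorta, HSPH1 was at 1.90 (1.74 to 2.07).

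Of 8 adhesion and inflammation genes, 0 were called. VCAM1, which holds leukocytes to the vessel wall, had 2799 CPM in members and 3277 CPM in the other remaining cells, and CCL2, which attracts monocytes, 1379 and 1487 CPM. P-selectin, encoded by SELP, was at 1.19 (1.10 to 1.28). Of 13 immediate early genes and 6 p53 targets, 0 were called, with median ratios of 0.965 and 0.909. CDKN1A, the p53 target that stops the cycle, had 5 UMIs over the 682 members. Of 14 genes of adhesion, junctions and matrix contact and 7 angiogenic and shear genes, 0 were called, with medians of 0.922 and 0.977. The lowest ratio of the former was that of AMOTL2 at 0.756, and of the latter that of ESM1 at 0.773.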
